A study of Homo sapiens with 4 samples.

Results

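Alternative C-terminal exon events are places where an mRNA can run from one splice site into either of 2 exons, so that the transcript and the protein can end differently. The members were the entries of the deposited splicing table that the authors annotated as alternative C-terminal exons and that held a value in all 4 libraries. They numbered 212 events of 3768 in the whole table, from 168 distinct pairs of junctions in 159 genes. The 2 other entries with this annotation lacked a value.

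The study sequenced poly-A selected RNA of A549, a human lung adenocarcinoma cell line. The wild-type group (2 libraries) was A549 with the RBM10 wild type genotype, and the knockdown group (2 libraries) was A549 that had received a lentiviral shRNA against RBM10 and been selected with puromycin at 1 µg/mL for 10 to 14 days. RBM10 is an RNA-binding protein of the spliceosome that is often mutated in lung adenocarcinoma. The labels tell no batches apart among the 4 libraries, which were read as paired ends of 100 bases. The labels name 1 shRNA and leave unsaid if wild-type cells were given a control virus or puromycin, so loss of RBM10 cannot be told apart from transduction and selection. Nor do they state that the 2 libraries of a group were separate cultures. Each p-value thus reflects only spread between libraries, which may be technical. That spread is partly borrowed from all events or genes tested.

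An alternative last exon carries its own stop codon or untranslated region and its own polyadenylation site. When the proximal exon is used, cleavage and polyadenylation end the transcript there, and when it is skipped by splicing, transcription runs on to the distal exon. Splicing at the acceptor of the proximal exon and recognition of its polyadenylation signal thus compete with splicing to the distal exon, and the choice can remove or exchange the C-terminal part of a protein.

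PSI (percent spliced in) is the share of the authors' reads over an event that use the examined junction. Below, the proximal end exon is the one whose acceptor (the first base of the exon) lies nearer to the shared donor (the last base of the upstream exon), read along the strand of the gene. The junctions below belong to the 4 genes with the largest difference toward each end exon, and show which exon start each PSI refers to. The last 15 bases of the upstream exon are in lower case and the first 15 bases of the proximal or distal exon in capitals, read 5′ to 3′ from GENCODE v29 transcripts on hg38.
CEP41 proximal: caagactggacactgGTGCCTGTGTGTATC
CEP41 distal: caagactggacactgGTAACAGTATGACTA
CFLAR proximal: actgagacaagaaagGGGGACAATTCCCGG
CFLAR distal: actgagacaagaaagAAAACGCCCACTCCT
SRGAP2 proximal: cgtggtccaagacacGTTGATATCCTGAGT
SRGAP2 distal: cgtggtccaagacacCGAGGACGGTGTCGT
AP002495.1 proximal: ggtccacggtcccggCCGGTGAACTCGATA
AP002495.1 distal: ggtccacggtcccggGAGTAATGTGAGGAT
ZNF765 proximal: acctggtctccctggATATCTCTTCCAAAT
ZNF765 distal: acctggtctccctggAGTTGTCAGGGGAGT
NOL4L proximal: acagtcaagaggacgGGCCCCACCGCTTGA
NOL4L distal: acagtcaagaggacgATGACTCCTCCTCTG
MACROD1 proximal: ccatcgtcaacgccgACTCTCACAGCCAGG
MACROD1 distal: ccatcgtcaacgccgCCAACAGCTCCCTGC
AC006453.2 proximal: actccgtcctgcaagACTCTTTGGCAGTTG
AC006453.2 distal: actccgtcctgcaagATGGACTCTGTGACT

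RBM10 itself was at 35.5 and 40.8 RPKM (reads scaled by gene length and by the size of the library) in wild type, against 11.6 and 10.9 RPKM in knockdown. The groups did not overlap, and 29.5% of the wild-type mean was left (log2 difference −1.67 ± 0.11 SE, adjusted p = 1.01e-05, limma with Benjamini-Hochberg adjustment). Each library had between 9502 and 10113 genes at 1 RPKM or more. All 5 epithelial marker genes were found, with summed levels of 1228 to 1357 RPKM in wild type and 2448 to 2549 RPKM in knockdown. KRT18 and KRT8 made up nearly all of that sum, and CDH1 did not pass the test (means of 2.97 and 3.31 RPKM, adjusted p = 0.497, limma). Of the markers of other cell types, 3 of 4 fibroblast genes were in the table. They summed to 0.557 to 0.833 RPKM in wild type and 1.99 to 2.10 RPKM in knockdown. Of 3 endothelial genes only PECAM1 was in the table, at most at 0.0130 RPKM. Of 3 blood cell genes only CD68 was, at 1.56 to 1.72 RPKM in wild type and 3.49 to 3.57 RPKM in knockdown. The part of these shifts in the splicing results was not tested. In bulk RNA, fewer cells of a kind and less RNA per cell cannot be told apart.

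The label was checked against the junctions and the annotation. In 144 events (113 pairs of junctions, 109 genes) both junctions left the same donor and entered different acceptors, the form that an alternative end exon takes. In the other 68 events (53 genes) the junctions shared the acceptor and left different donors, so that neither a proximal nor a distal end exon could be read from them. Of these 68, 58 had a donor in an annotated first exon, 29 entered an annotated last exon, and 34 had a first-exon donor and no last exon. They stayed among the members, as the annotation asks, and are described apart.

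Among the 113 placed pairs, the proximal exon was annotated only as a last exon in 97, and the distal exon only as a last exon in 25. The common form was thus a short way to a terminal exon against splicing onward to an internal exon of the longer transcript. The median distance from the donor was 1.85 kb to the proximal acceptor and 11.2 kb to the distal one, and the acceptors lay a median of 7.18 kb and at most 186 kb apart. In 5 pairs the acceptors were at most 10 bases apart, which is an alternative splice site rather than a separate exon. Of 98 pairs with a proximal last exon, 50 of these exons hold an annotated stop codon. Where complete proteins are annotated for both junctions (42 pairs), the one through the proximal exon was the shorter in 39, with a median length of 47.5% of the longest distal one.

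The polyadenylation signals AATAAA and ATTAAA were searched on the transcript strand in the last 50 bases before the annotated end. One or both stood in 64 of 131 distinct ends of the proximal last exons (48.9%), against 34.1% of 110767 distinct ends of multi-exon transcripts of protein-coding genes. The member ends also include ends of genes that are not protein-coding, so the sets differ. Among the proximal transcripts shown above, those of CEP41, NOL4L and MACROD1 had a match. Those of CFLAR, SRGAP2, AP002495.1, ZNF765 and AC006453.2 had none. A match is a description of the letters in that window and not a measured cleavage site.

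No member event passed limma's test with Benjamini-Hochberg adjustment over all 3744 events with 4 values (smallest adjusted p = 0.194). Of all events in the table, 0.107% passed. A weaker rule, an unadjusted limma p under 0.05 with a difference of at least 10 percentage points, was therefore used to describe the events, and "called" below means only that. It called 50 of the 212 events (23.6%), 25 higher and 25 lower, in 34 genes, against 18.4% of all events. The share over all events was taken only in this fit of 4 libraries. With 1 library left out the rule called 19 and 22 events (first and second wild-type library left out) and 28 and 24 events (first and second knockdown library left out). The groups did not overlap and differed by at least 10 points in 117 events (55.2%), against 53.5% of all events. The median absolute difference was 14.4 points among the members and 14.4 points among all events. The members' median gap between the libraries of a group was 12.1 points in wild type and 10.0 points in knockdown. These gaps are between single libraries and the differences between means of 2, so the sizes are not directly comparable.

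**Figure D1:**
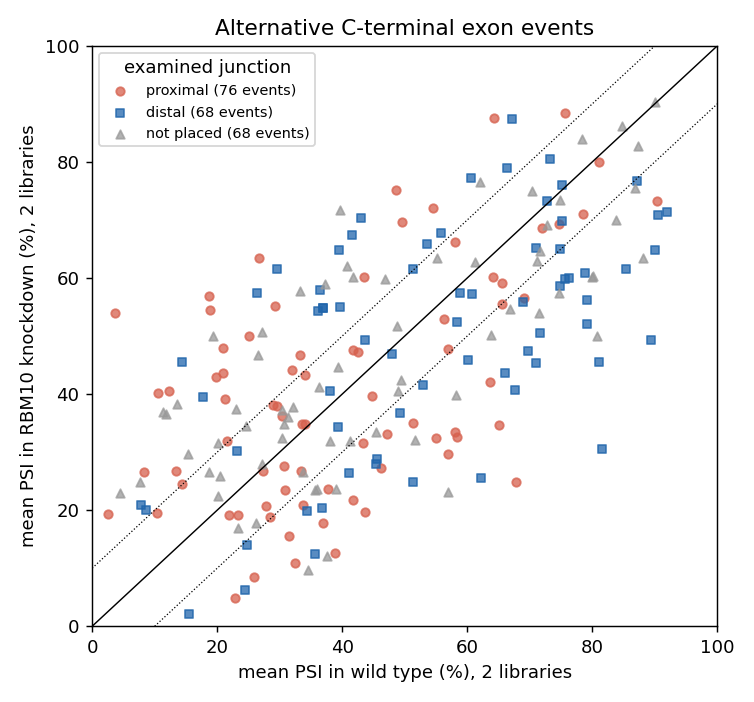
Mean PSI (%) in the 2 knockdown libraries (y axis) against the 2 wild-type libraries (x axis), 1 point per event, for 76 events whose examined junction is proximal, 68 whose examined junction is distal and 68 that could not be placed. The solid line marks equal PSI and the dotted lines a difference of 10 percentage points; points of each kind lie on both sides of the line.

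Each of the 109 genes with a placed event was given the median over its events. Use of the proximal end exon was higher in knockdown in 56 genes and lower in 53, with a median difference of +1.07 points. The split turned with the junction examined: from examined proximal junctions alone 34 genes lay toward proximal and 41 toward distal, and from examined distal junctions alone 41 toward proximal and 26 toward distal. Examined proximal junctions had median PSI of 37.8% and 38.2% in wild type and 42.8% and 33.3% in knockdown. Examined distal junctions had medians of 56.6% and 54.9% in wild type and 53.5% and 55.2% in knockdown. The group ranges overlapped for the distal medians, and the knockdown libraries lay on both sides of the wild-type ones for the proximal medians. The called genes were 18 toward the proximal exon and 8 toward the distal exon. In the same order of libraries left out, these counts were 7, 9, 7 and 11 toward proximal and 4, 6, 5 and 3 toward distal.

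The split was looked at by what the annotation says of the 2 exons. Where both acceptors open an annotated last exon (34 genes), 17 genes lay toward each side, with a median of +2.94 points. With only the proximal exon last (62 genes), 34 lay toward proximal and 28 toward distal, with a median of +4.32 points. The 6 genes with only the distal exon last were split 3 and 3, and of the 9 genes with neither exon last, 3 lay toward proximal and 6 toward distal. Events were called in 23.1%, 31.8%, 33.3% and 0% of these 4 classes in this order, and in 16.2% of the events with a shared acceptor, against 18.4% of all events. The differences between classes were not tested.

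**Figure D2:**
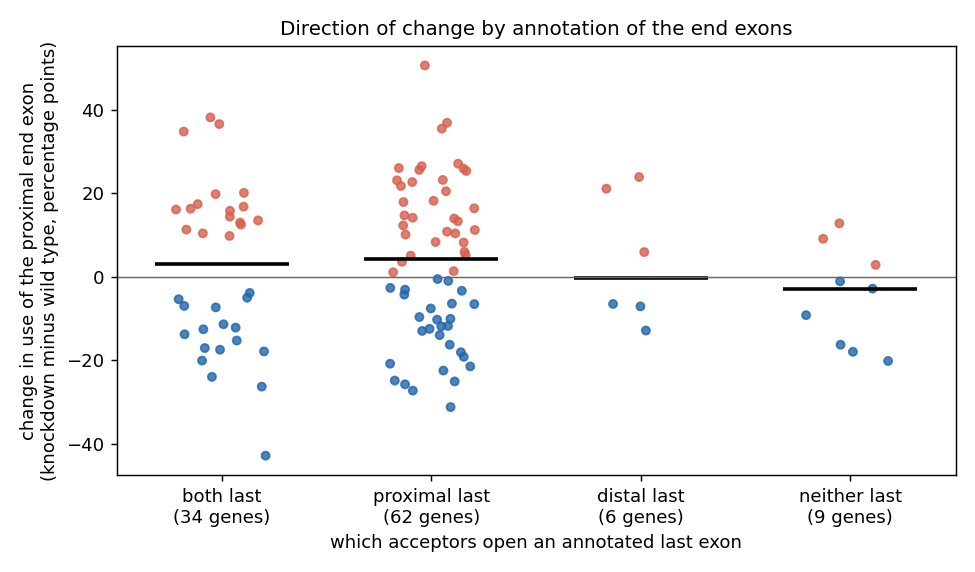
Knockdown minus wild-type use of the proximal end exon (percentage points), 1 point per gene and class (2 genes fall in 2 classes), by which of the acceptors opens an annotated last exon. Red points lie toward the proximal exon, blue toward the distal exon, and bars are medians, which lie between −2.85 and 4.32 points.

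The largest difference of all members was in CEP41, a protein of the centrosome and cilium needed for tubulin glutamylation. Its junctions leave the donor at chr7:130427955 on the minus strand for a last exon of 2974 bases at chr7:130419034-130422007 or for an internal exon of 48 bases at chr7:130416919-130416966. PSI of the distal junction was 81.5% and 81.8% in wild type and 30% and 31.2% in knockdown. The groups were far apart, and the libraries of each group nearly coincided. The difference was −51.0 ± 8.31 points (SE, unadjusted p = 0.000675, adjusted p = 0.194, limma). This SE is wider than the spread of these libraries because limma draws the variance of each event toward that of all events tested. The proximal junction, listed as an event of its own, was at 7.41% and 0% in wild type and 58.0% and 50% in knockdown. The annotated proteins are 54 residues through the proximal exon and 373 through the distal one. CEP41 was little expressed, at 1.14 and 0.818 RPKM in wild type and 0.767 and 0.685 RPKM in knockdown.

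CFLAR encodes the inhibitor of caspase-8 at death receptors. From the donor at chr2:201160942 (plus strand) its proximal junction enters a last exon of 162 bases at chr2:201162996-201163157 and its distal junction a last exon that starts at chr2:201163835. PSI of the distal junction was 90.3% and 88.5% in wild type and 62.5% and 36.4% in knockdown, and that of the proximal junction 9.68% and 11.5% against 37.5% and 42.9%. Neither junction's groups overlapped, but the knockdown libraries were 26.1 points apart on the distal one. Its difference was −40.0 ± 11.1 points (SE, unadjusted p = 0.0101, limma), and without wild-type replicate 1 or 2 the unadjusted limma p was 0.0610 and 0.0536. The annotated proteins, of 462 and 480 residues, differ little in length. CFLAR was at 2.41 and 2.19 RPKM in wild type and 3.61 and 3.68 RPKM in knockdown, and rose by 0.49 on the log2 scale (adjusted p = 0.0120, limma).

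SRGAP2, a protein that shapes membrane protrusions, has near-identical copies in the genome, so its read assignment is uncertain. Its proximal junction runs from chr1:206453380 to a last exon of 557 bases at chr1:206454144-206454700. PSI of that junction was 25.5% and 11.9% in wild type and 63.2% and 50.6% in knockdown, with both knockdown libraries above both wild-type ones. The difference was 38.2 ± 9.78 points (SE, unadjusted p = 0.00701, limma), and the unadjusted limma p was 0.0510 without wild-type replicate 2 and 0.0625 without knockdown replicate 1. The table holds 4 further entries for this place under other annotations. The distal junction was at 74.5% and 88.1% in wild type and 19.2% and 34.2% in knockdown. Reads across the end of the proximal exon at position 206454700 were at 0% in both wild-type libraries and at 58.8% and 27.3% in knockdown, and reads across the distal acceptor at 206454878 at 0% against 51.7% and 34.4%. Both ends of the stretch between the exons thus had reads in the knockdown libraries and were listed at 0 in wild type, both measured against the distal junction. Reads that cross the end of the proximal exon do not end there. The placement of SRGAP2 toward proximal thus holds for the junctions, and use of that exon as a last exon was not shown. The junction over the next intron, measured against reads within that intron, was at 60.0% and 63.0% in wild type and 100% in both knockdown libraries. Those reads lie at position 206455772, inside the annotated distal last exon at chr1:206454878-206456159, and may belong to that exon. The annotated proteins are 789 residues through the proximal exon and 1071 through the distal one.

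Differences toward the proximal end exon were also found in ABCC4, MLPH and SCLT1. ABCC4, an efflux pump of cyclic nucleotides and drugs, had distal PSI of 93.9% and 68.2% in wild type and 42.1% and 48.9% in knockdown. Its difference of −35.5 ± 11.2 points (unadjusted p = 0.0174, limma) became −22.7 points without wild-type replicate 1, and the wild-type libraries were further apart than the knockdown ones. MLPH, which links Rab27a to myosin Va, had distal PSI of 67.9% and 67.6% in wild type and 43.4% and 37.9% in knockdown, a difference of −27.1 points (unadjusted p = 0.0169, limma). In SCLT1, a protein of the distal appendages of centrioles, proximal PSI was 20% and 21.9% in wild type and 52.0% and 44.0% in knockdown (27.1 points, unadjusted p = 0.0184, limma). The annotated proteins of SCLT1 are 131 and 688 residues, and those of ABCC4 859 and 1325, the shorter through the proximal exon. Unadjusted limma p for ABCC4 was 0.0962 without wild-type replicate 1, 0.145 without knockdown replicate 1, 0.101 without knockdown replicate 2 and 0.0555 on a logit scale. For MLPH it reached 0.0593 without wild-type replicate 1, 0.0576 without wild-type replicate 2 and 0.0507 without knockdown replicate 2, and for SCLT1 0.0696, 0.0577 and 0.0583 without wild-type replicates 1 and 2 and knockdown replicate 1.

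KLHL18, an adaptor of cullin-3 ubiquitin ligases, had proximal PSI of 48.6% and 48.5% in wild type and 78.4% and 71.8% in knockdown (26.5 points, unadjusted p = 0.0190, limma). TRIM16L had proximal PSI of 8.89% and 15.6% in wild type and 46.7% and 34.5% in knockdown (28.3 points, unadjusted p = 0.0198, limma), while its distal junction was not called (−22.4 points, unadjusted p = 0.0528, limma). Groups did not overlap in either gene, and TRIM16L is a near copy of part of TRIM16. AP002495.1 had proximal PSI of 20% and 33.3% in wild type and 58.3% and 68.8% in knockdown (36.9 points, unadjusted p = 0.00744, limma), at 0.298 to 0.505 RPKM. The lincRNA AC245595.1, which lies in a duplicated region, had distal PSI of 57.4% and 67.1% in wild type and 20% and 31.2% in knockdown (−36.6 points, unadjusted p = 0.00669, limma). A further entry, annotated as an alternative 3′ splice site, sets a still more distal acceptor at 144208475 against this same junction. Its PSI was 4.41% and 6.85% in wild type and 47.0% and 27.5% in knockdown (31.6 points, unadjusted p = 0.0176, limma), so the placement of AC245595.1 toward proximal holds only between the 2 acceptors of the member event. Of the 10 genes named toward the proximal exon, CEP41 and AC245595.1 stayed under an unadjusted limma p of 0.05 whichever library was left out. The unadjusted limma p of KLHL18 reached 0.0633, 0.0640 and 0.0560 without wild-type replicates 1 and 2 and knockdown replicate 1, that of TRIM16L 0.0925 and 0.0795 without wild-type replicate 1 and knockdown replicate 1, and that of AP002495.1 0.0515 and 0.0625 without wild-type replicate 1 and knockdown replicate 2.

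The 8 other called genes toward the proximal exon lie outside the rule for named genes and are named after their values were seen. Their differences were smaller. Distal PSI of CERS1, a ceramide synthase, was 78.6% and 63.3% in wild type and 46.8% and 44.0% in knockdown. That of WDFY2, an endosomal protein, was 91.8% and 88.5% against 58.6% and 71.2%, while its proximal junction was not called (unadjusted p = 0.0727, limma). Proximal PSI of SSH2, a phosphatase of cofilin, was 60.6% and 68.0% in wild type and 94.3% and 80.6% in knockdown. PHTF1, UBFD1, ZNF12, OLMALINC and NPIPA8 were the others, with absolute differences of 22.7, 20.5, 23.1, 23.9 and 21.1 points. The acceptors of OLMALINC lie 3 bases apart, and NPIPA8 belongs to a family of near-identical genes.

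**Figure D3:**
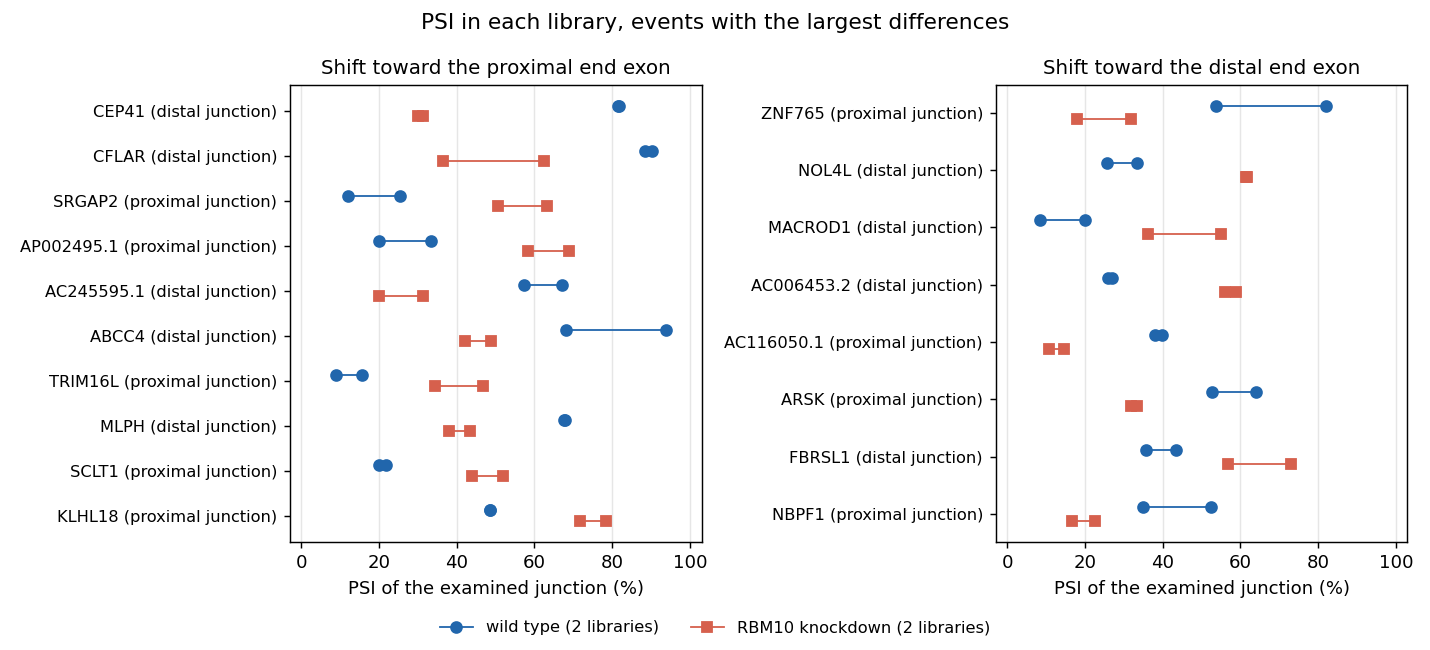
PSI (%) of the examined junction in each of the 2 wild-type (blue circles) and 2 knockdown libraries (red squares) for the 10 genes named toward the proximal and the 8 toward the distal end exon, lines joining the libraries of a group. The groups do not overlap in any of the 18, which the choice of these genes required.

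Toward the distal end exon the largest difference was in ZNF765, a zinc finger gene. From chr19:53402191 (plus strand) its junctions enter last exons of 4310 bases at chr19:53407698-53412007 and of 7352 bases at chr19:53423062-53430413. PSI of the proximal junction was 82.1% and 53.6% in wild type and 31.8% and 17.9% in knockdown. The groups were apart, with 28.5 points between the wild-type libraries. The difference was −42.9 ± 12.1 points (SE, unadjusted p = 0.0111, limma), and the unadjusted limma p was 0.0701, 0.0720 and 0.137 without wild-type replicate 1, knockdown replicate 1 and knockdown replicate 2. Here the proximal exon gives the longer annotated protein, 523 residues against 60. ZNF765 was at 0.443 to 0.991 RPKM.

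In NOL4L the distal junction spans 18.2 kb and skips a last exon of 338 bases at chr20:32464780-32465117. Its PSI was 25.6% and 33.3% in wild type and 61.4% and 61.7% in knockdown, with the knockdown libraries close together and above both wild-type ones. The difference was 32.1 ± 8.58 points (SE, unadjusted p = 0.00856, limma), and the unadjusted limma p stayed under 0.05 whichever library was left out. The annotated proteins are 91 residues through the proximal exon and 680 through the distal one. MACROD1, a mitochondrial enzyme that removes ADP-ribose from proteins, has a distal junction of 136 kb against a proximal one of 2.21 kb. Distal PSI was 8.51% and 20% in wild type and 36.2% and 55.1% in knockdown (31.4 ± 10.4 points, unadjusted p = 0.0214, limma). Its proximal junction, listed as an event of its own, was at 59.6% and 32.7% in wild type and 38.3% and 16.3% in knockdown, with overlapping groups, and was not called (−18.8 points, unadjusted p = 0.188, limma). Without wild-type replicate 1 or knockdown replicate 2 the unadjusted limma p was 0.119 and 0.115.

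ARSK, a lysosomal sulfatase, had proximal PSI of 64.1% and 52.7% in wild type and 31.9% and 33.3% in knockdown (−25.8 points, unadjusted p = 0.0256, limma). Its annotated proteins are 46 residues through the proximal exon and 536 through the distal one. FBRSL1 had distal PSI of 43.5% and 35.6% in wild type and 56.8% and 73.1% in knockdown (25.4 points, unadjusted p = 0.0380, limma). Its proteins are 490 and 1045 residues, the shorter through the proximal exon, and its call was lost on a logit scale, where limma's unadjusted p was 0.0799, and with a variance trend (0.0524). ARSK had 0.0582 on that scale. Without wild-type replicate 1, knockdown replicate 1 or knockdown replicate 2, unadjusted limma p for ARSK was 0.116, 0.0872 and 0.0778. Without wild-type replicate 1, wild-type replicate 2 or knockdown replicate 2, it was 0.0749, 0.156 and 0.141 for FBRSL1.

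The 3 remaining genes lie in duplicated sequence, so that reads may be shared with other copies. AC006453.2 had distal PSI of 25.8% and 27.0% in wild type and 58.9% and 56.0% in knockdown (31.1 points, unadjusted p = 0.00880, limma), a narrow spread in both groups. AC116050.1 had proximal PSI of 37.9% and 39.8% against 10.8% and 14.5% (−26.2 points, unadjusted p = 0.0189, limma). NBPF1, of the neuroblastoma breakpoint family, had 34.9% and 52.5% against 22.7% and 16.7% (−24.0 points, unadjusted p = 0.0474, limma), and −15.2 points without wild-type replicate 2. Its distal junction was not called (17.7 points, unadjusted p = 0.0945, limma), and the call of the proximal one was lost on a logit scale, where limma's unadjusted p was 0.0648, and with a variance trend (0.0505). Its unadjusted limma p was 0.216, 0.119 and 0.187 without wild-type replicate 2, knockdown replicate 1 and knockdown replicate 2, and that of AC116050.1 was 0.0557, 0.0680 and 0.0519 without wild-type replicates 1 and 2 and knockdown replicate 1. Of the 8 genes, NOL4L and AC006453.2 kept their call whichever library was left out.

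The called genes were set side by side by the layout of their introns, as a description. Toward the proximal exon the median was 1.38 kb to the proximal acceptor and 4.79 kb to the distal one, with 2.72 kb between them. Toward the distal exon the medians were 3.86, 19.5 and 16.0 kb. The proximal exon was an annotated last exon in 16 of 18 and in 8 of 8 genes. With complete proteins for both junctions, the proximal one was the shorter in 6 of 6 genes toward the proximal exon and in 3 of 4 toward the distal exon, with ZNF765 as the exception. None of 46 genes listed as known for alternative ends or C-termini, such as LMNA, TPM1, NUMB and CD47, had a member event. Only 159 of the 17041 genes with an expression value had one, so 0 in a list of this size says little.

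Some events differed more between libraries of a group than between groups. SFI1, a centrosomal protein, had proximal PSI of 29.3% and 30% in wild type and 65.4% and 10.5% in knockdown, so the knockdown libraries lay 54.9 points apart on either side of the wild type. SLCO4A1, an organic anion transporter, was at 95.5% and 54.2% in wild type and 60.3% and 69.8% in knockdown on its distal junction. FAM114A2 (37.5% and 23.8% against 54.8% and 14.7%, not placed) and OLFM1, a secreted glycoprotein (distal, 52.0% and 69.6% against 37.9% and 76.5%), also overlapped.

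Among the 68 events with a shared acceptor, 11 were called, in 8 genes named after their values were seen. In HNRNPA2B1, an abundant RNA-binding protein, the examined junction of 0.533 kb was at 40.3% and 39.2% in wild type and 78.5% and 64.9% in knockdown. The knockdown libraries were both above the wild-type ones, and the difference was 32 ± 9.13 points (SE, unadjusted p = 0.0116, limma, and 0.0538 without wild-type replicate 2). The gene itself was at 617 and 552 RPKM in wild type and 426 and 535 RPKM in knockdown (adjusted p = 0.111, limma). SREK1, a regulator of splicing, was at 10.9% and 11.8% in wild type and 33.3% and 40.4% in knockdown, and RARA, a retinoic acid receptor, at 88.2% in both wild-type libraries and at 65.8% and 61.1% in knockdown. GPR161, a receptor of the cilium, was at 57.1% and 56.8% against 30.8% and 15.4%, and NFATC3, a calcineurin-regulated transcription factor, at 30.1% and 45.2% against 10.0% and 14.1%. Groups did not overlap in any of these. CAMTA2, BROX and CDC14B had absolute differences of 30.8, 24.7 and 23.6 points. GPR161 kept its call whichever library was left out, HNRNPA2B1 lost it in 1 of these 4 fits, and the other 6 genes in 3 of 4. CDC14B also lost it on a logit scale, where limma's unadjusted p was 0.0585.

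Of the 168 pairs of junctions, 44 were listed in both directions, each junction once as the examined one. Their PSI values summed to a median of 95.8% (from 48.6% to 100%), and 15 pairs were within 2 points of 100% in all 4 libraries. The signs were opposite in 43 of 44. A sum under 100% means that the authors' denominator held more than these 2 junctions, or that they were not counted alike.

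Gene expression was compared to see whether the genes of these events also differed in level. Of the 159 genes, 130 passed the filter of a mean of 1 RPKM in at least 1 group. In knockdown 23 were higher (17.7%, against 15.3% of all genes tested) and 6 were lower (4.62%, against 7.03%), by an adjusted p under 0.05 in limma. With quantile normalization the split was 14 higher and 13 lower, and without knockdown replicate 1 the lower genes numbered 1. The shares of all genes were not taken in these alternative fits. In the main fit the median log2 difference was 0.06, and 0.02 over all genes tested. The noncoding IGFL2-AS1 was at 0.440 and 0.907 RPKM in wild type and 16.6 and 14.6 RPKM in knockdown, and rose by 3.32 on the log2 scale of RPKM + 1 (adjusted p = 1.78e-06, limma).

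Among the called genes MACROD1 rose by 0.89 (adjusted p = 0.000809, limma), AC245595.1 by 0.96 (adjusted p = 0.000720, limma) and CERS1 by 0.64 (adjusted p = 0.00283, limma) on the log2 scale. TRIM16L fell by 0.53 (adjusted p = 0.0124, limma), UBFD1 by 0.52 (adjusted p = 0.0105, limma) and MLPH by 0.45 (adjusted p = 0.0149, limma). Over the 86 genes with a placed event and a tested level, the difference in proximal exon use and the log2 difference in expression had a Pearson r of −0.16 and a Spearman correlation of −0.21. This is across genes of the same 4 libraries, and genes are not independent replicates. If the deposited RPKM rest on reads across splice junctions, an early end exon could itself alter the level read for a gene, which was not tested. Of the 6 lower genes, 5 lay toward the proximal exon, and of the 14 higher genes 6 did, where 44 of the 86 did in all.

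**Figure D4:**
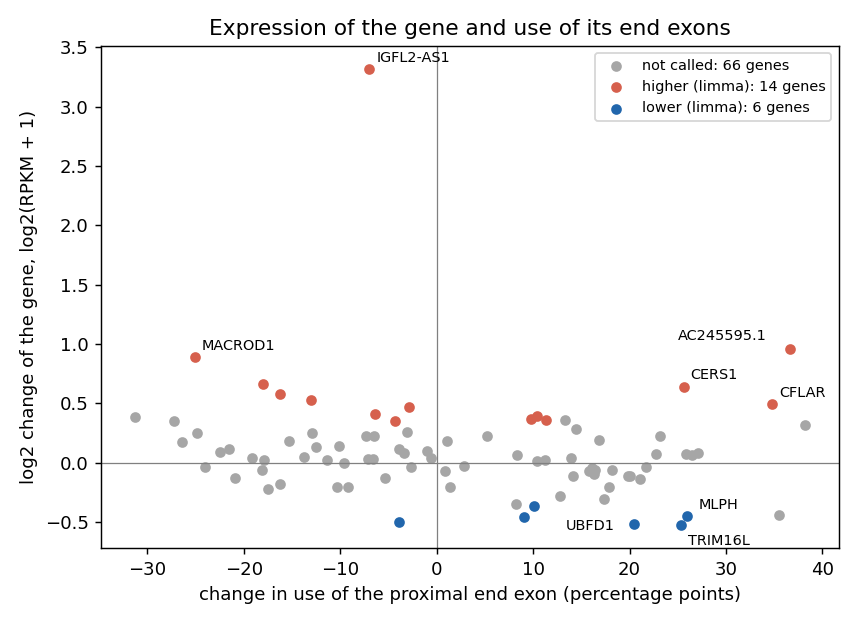
Log2 difference in expression (knockdown to wild type, log2 of RPKM + 1) against the difference in proximal end exon use for 86 genes. The latter is in percentage points, as the median over a gene's events. The 14 genes called higher are red and the 6 called lower blue, and 5 of the 6 lower genes lie right of 0.

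Genes that cut and polyadenylate transcripts or act beside that step were read from a list of 41, 40 of which were tested. Besides cleavage and polyadenylation factors it holds the PAF1 elongation complex, CDK12, CDK13 and their cyclin, proteins of the U1 particle and cytoplasmic poly(A)-binding proteins. None was higher in knockdown, against 15.3% of all genes tested, and 6 were lower (15%, against 7.03%). The median log2 difference was −0.12, and 0.02 over all genes tested. CTR9, of the elongation complex PAF1, was at 15.8 and 13.0 RPKM in wild type and 8.66 and 10.2 RPKM in knockdown and fell by 0.56 (adjusted p = 0.0132, limma). SSU72, a phosphatase of the polymerase tail, was at 12.8 and 13.9 against 8.65 and 9.33 RPKM and fell by 0.52 (adjusted p = 0.00723, limma). CSTF3, of the cleavage stimulation factor, was at 13.9 and 12.5 against 9.46 and 9.91 RPKM and fell by 0.41 (adjusted p = 0.0240, limma).

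The cytoplasmic poly(A)-binding protein PABPC4 fell by 0.42 (adjusted p = 0.0129, limma). WDR33, which binds the AAUAAA signal, fell by 0.35 (adjusted p = 0.0495, limma), and SNRPC, a protein of the U1 particle, by 0.31 (adjusted p = 0.0391, limma). PCF11, a cleavage factor known to act on proximal sites, was at 2.11 and 1.74 RPKM in wild type and 1.64 and 1.93 RPKM in knockdown, with overlapping groups. NUDT21, of the cleavage factor that binds UGUA, was at 8.37 and 7.09 against 9.19 RPKM in both knockdown libraries and did not pass the test (adjusted p = 0.191, limma). None of the 40 genes had a member event, and the count of lower genes was 1 to 4 with 1 library left out (1 without knockdown replicate 1, 2 without wild-type replicate 1 or knockdown replicate 2, 4 without wild-type replicate 2). The share of all genes was not taken in those fits. As 159 of the 17041 genes with an expression value had a member event, its absence here says little. Whether the levels of the listed genes bear on the end exons was not tested.

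**Figure D5:**
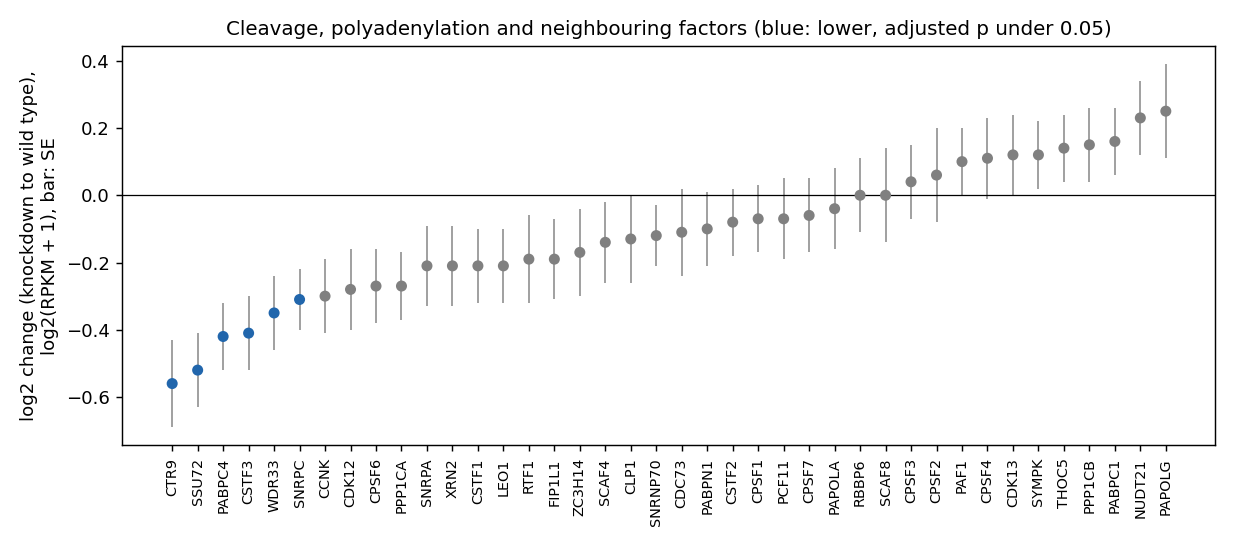
Log2 difference in expression (knockdown to wild type, log2 of RPKM + 1) with its standard error for the 40 tested genes of the list of cleavage, polyadenylation and neighbouring factors, in order. The 6 blue genes, from CTR9 to SNRPC, passed an adjusted p of 0.05 in limma, and no gene above 0 did.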

How the data were processed

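Per the labels' protocols, RNA of 4 A549 libraries was poly-A selected and sequenced with a stranded kit. The submitters' processing notes name STAR 2.6.1 and hg38, while no splicing caller, counter or annotation was given in the sources used here. PSI was deposited by the authors as a fraction per event, printed here as percent. Their table lists only events whose spread over the libraries was at least 15.0 percent, which raises every count of differences. Read depth behind PSI is unknown, so no interval could be given. The authors deposited expression in a unit not written in the file, taken as RPKM from the values. Of 980 protein-coding genes with 1 exon 17 were in that table (1.73%), against 74.9% of those with several, so the values may rest on reads across splice junctions, which no source used here states.

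PSI was tested with limma 3.58.1 (R 4.3.3) over all events with 4 values, and log2(RPKM + 1) over genes with a mean of at least 1 RPKM in 1 group, each 2 against 2 libraries with Benjamini-Hochberg adjustment. Each SE and p-value rests on a variance that limma drew toward that of all events or genes tested. Fits were tested on simulated data with normally distributed noise. For PSI the simulation lacked the cut on spread that the deposited events had passed, so it gives no error rate for them. Alternatives were a logit scale, a variance trend, a replicate block, a difference of at least 20 points, 1 event per gene, other normalization, pseudocount and filter, and leaving out each library. Exon ends, transcripts and proteins came from GENCODE v29, and transcripts marked as incomplete at the 3′ end were left out as ends, a choice made after seeing the data. Protein lengths are the longest annotated for a junction. Splice site sequences with intron bases were not used here.

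The named genes were, among called events with groups that did not overlap, the 10 with the largest difference toward each end exon (8 existed toward distal), the 4 with the widest gap within a group, listed genes known for alternative ends, up to 6 polyadenylation genes and RBM10. PCF11 and NUDT21 were named beyond the rule. The members and lists were chosen with earlier results of these data known. Replicate numbers did not establish pairs.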

Additional observations from a re-analysis of the deposited data

How the results depend on the processing

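The count of called events was 50, and 33 with 1 event per gene. The share called over all events was not taken for this or the alternatives below. Leaving out 1 library gave 19 to 28, with 7 to 11 genes toward the proximal and 3 to 6 toward the distal exon, against 18 and 8. Of the 18 named placed genes, 4 kept their call in each of these fits, and 12 and 8 lost it without the first or second wild-type library, 9 and 8 without the first or second knockdown library. Member events whose groups did not overlap and whose means differed by at least 20 points numbered 62. The share of all events at this cut was not taken. Genes toward proximal and distal, 56 and 53 in all, were 34 and 41 from examined proximal junctions alone, 41 and 26 from examined distal junctions alone, and 17 each where both exons are annotated as last. Leaving out 1 library at a time took the difference from −15.9 to 24.2 points in FAM114A2, from −22.9 to 15.7 in OLFM1, from −30.4 to 10.9 in SLCO4A1 and from −19.1 to 35.8 in SFI1. The sign turned without wild-type replicate 2 in FAM114A2 (−2.73) and OLFM1 (5.20), without wild-type replicate 1 in SLCO4A1, and without knockdown replicate 1 in FAM114A2, OLFM1 and SFI1.

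With a replicate block 3 events passed the adjusted test (CEP41 in both directions and ZNF765), 15 host genes were higher and 3 genes of the polyadenylation list lower. The numbers did not establish pairs: differences between replicates correlated at −0.04 for PSI and −0.44 for expression. With crossed numbers, chosen after seeing the data, 12 host genes and 13 polyadenylation genes were lower. Without a filter on low values the host genes gave 8 higher and 0 lower and the polyadenylation genes 2 lower, where more genes were tested, and with quantile normalization 14 and 13 host genes. With 1 library left out, 1 to 7 host genes and 1 to 4 polyadenylation genes were lower. A lone library was assumed to vary like the other group. Shares over all genes were not taken in any of these alternatives. Some had fewer samples or more genes, and why the counts moved was not tested. Also chosen after seeing the data, 1 event per junction pair gave 34 called events and protein-coding genes alone 44. Neither count has a share over all events beside it.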
